A study of Mus musculus with 4 samples.

Results

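Pyy, Gcg, Insl5, Sct, Cck, Sst, Nts, Tph1, Chga and Chgb encode the peptide hormones, the serotonin-making enzyme and the granule proteins by which enteroendocrine cells, the hormone-releasing cells of the gut lining, are known. These 10 genes, of 55450 counted in the series, were chosen by name, and all 10 were found in the count tables. They were read cell by cell in the 2 intestinal libraries of the series, in enteroendocrine-like cells found by clustering without the 10 genes and named from 22 other marker genes. This gave 211 of 27483 kept cells, 92 of 10637 in the NPs library and 119 of 16846 in the untreated library. The series holds droplet single-cell transcriptomes (10x Genomics, which tag each captured RNA molecule with a unique molecular identifier, UMI) of cells from the intestine and the brain of wild-type (WT) mice. The NPs intestinal library came from mice that had received NPs for 1 week, and the untreated intestinal library from mice without treatment. The labels do not spell out NPs and give no number of animals per library. They name BALB/c mice aged 5 weeks and ICR mice aged 6 months as sources without saying which gave which library, and the series text speaks of the colon where the sample labels say intestine. With 1 library per group there is no replicate error and no test: all intervals below are 95% and cover counting error only.

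Enteroendocrine cells are rare epithelial cells that sense nutrients, microbial products and stretch, and release peptides or serotonin from dense granules. L cells make peptide YY and proglucagon, and in the mouse colon also insulin-like peptide 5. Enterochromaffin cells make serotonin and D cells make somatostatin, while secretin, cholecystokinin and neurotensin are best known from the small intestine. A cell often makes several hormones, and the mixture changes along the gut and during the life of the cell.

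The libraries stood apart in several ways. The NPs library held 127772838 UMIs in 19918 barcodes (median 2411 UMIs) and the untreated library 116394801 UMIs in 20368 barcodes (median 2043), and they shared 104 barcodes, 0.522% of the NPs barcodes. More than 20% mitochondrial UMIs were found in 46.5% of NPs barcodes and 16.7% of untreated barcodes, which were left out. Kept enteroendocrine-like cells had a median of 6281.5 UMIs in the NPs library and 1432 in the untreated library. Posterior Hox genes (groups 10 and above), which mark position along the body axis, made up 11.2% of all Hox UMIs of these cells in the NPs library (90 of 803 UMIs, 9.11 to 13.6%) and 68.2% in the untreated library (389 of 570, 64.2 to 72.1%), and over all kept cells 9.79% and 77.2%. Treatment, the Hox difference, depth and whatever else separates these 2 libraries cannot be told apart.

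The cluster was named from the 22 markers, so their values describe the naming and are no separate support for it. The cells formed 1 cluster, led by Tac1, Scg5, Pcsk1n, Resp18, Cpe, Neurod1, Etv1, Scg2, Ddc and Ceacam10, in which 20 of the 22 markers were raised. A median of 10 markers was detected per NPs cell and 3 per untreated cell, against 0 in the other cells of either library, and no marker was detected in 1 NPs cell and 7 untreated cells. At least 3 were detected in 79 of 92 NPs cells and 72 of 119 untreated cells. Neurod1, a transcription factor of endocrine cells, stood at 292 CPM (UMIs of a gene scaled to a common total, 10000 CPM being 1% of all UMIs) in NPs enteroendocrine-like cells and 332 in untreated ones, against 0.347 and 0.226 in the other cells of the NPs and untreated libraries. Markers of other cell types were also present. The 11 absorptive epithelium markers summed to 8320 CPM in NPs enteroendocrine-like cells and 1596 in untreated ones, with 0 and 1 of them at 0, and the 10 goblet markers to 7823 and 1049 with none at 0. The 22 enteroendocrine markers summed to 3668 CPM in NPs cells and 4846 in untreated ones. That was below the absorptive and the goblet sum in the NPs library and above both in the untreated library. Neutrophil and red blood cell markers were all at 0. The part of these other transcripts in the differences below was not tested. Enteroendocrine-like cells made up 0.865% of kept NPs cells (0.698 to 1.06%) and 0.706% of untreated cells (0.586 to 0.845%), intervals that overlapped, and the order of the shares changed with the way the cells were found. The other kept cells differed in kind. T cell-like cells made up 2.44% of NPs and 16.3% of untreated cells, B cell-like cells 0.00940% and 9.65%, and goblet cell-like cells 36.4% and 7.74%. The part of this mix in the shares was not tested.

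Levels below, in CPM, are summed over all enteroendocrine-like cells of a library and divided by the summed UMIs of those cells. UMIs count molecules by their end and need no correction for transcript length. A cell is said to carry a gene with at least 3 UMIs of it that reach 1000 CPM of that cell. A gene is called higher or lower at a ratio of 2-fold. Of the 10 genes, 4 were higher in the NPs library (Nts, Cck, Sct and Chgb) and 3 were lower (Pyy, Gcg and Insl5), while Sst, Tph1 and Chga were called neither. Among the 3045 genes measured in these cells, 8.47% were higher and 3.55% lower, 12.0% in either direction. The median log2 ratio was 0.66 over the 10 genes and 0.19 over the 3045. Relative to that median of all genes Chgb stood at 0.87, under the call, and the split over all genes, 258 higher and 108 lower, became 175 and 165. Together the 10 genes took 6.11% of all UMIs of NPs enteroendocrine-like cells and 20.0% in untreated ones, against 0.0141% and 0.00831% in the other cells of the NPs and untreated libraries.

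**Figure D1:**
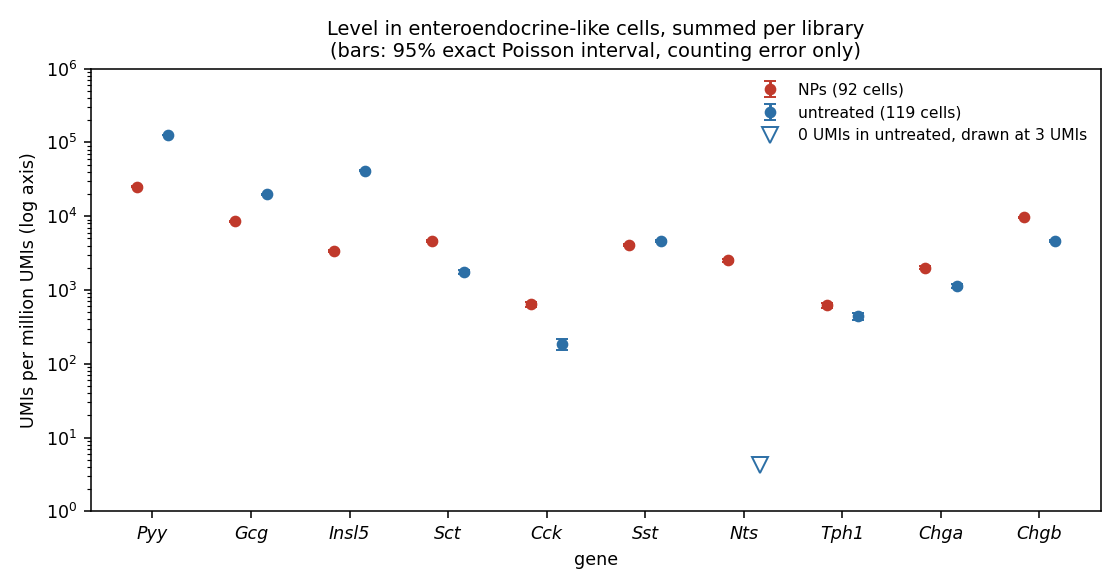
Level of each gene in CPM (log axis) over the 92 NPs and 119 untreated enteroendocrine-like cells, with 95% exact Poisson intervals, mostly smaller than the points. Pyy, Gcg and Insl5 lie lower in the NPs library and Sct, Cck, Nts and Chgb higher; Nts had 0 UMIs in untreated cells and is drawn at 3 UMIs, or 4.31 CPM.

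The Pyy, Gcg and Tph1 promoters are shown because Pyy and Gcg were carried in the same cells and Tph1 never with either. Each is the 250 bases before the RefSeq transcription start (GRCm38.p6, minus strand, read along the gene), in lower case with capitals marking CANNTG, the letters of an E-box, which basic helix-loop-helix factors such as Neurod1 can bind. Pyy lies at chr11:102107833-102108082, Gcg at chr2:62483654-62483903 and Tph1 at chr7:46672538-46672787.
Pyy: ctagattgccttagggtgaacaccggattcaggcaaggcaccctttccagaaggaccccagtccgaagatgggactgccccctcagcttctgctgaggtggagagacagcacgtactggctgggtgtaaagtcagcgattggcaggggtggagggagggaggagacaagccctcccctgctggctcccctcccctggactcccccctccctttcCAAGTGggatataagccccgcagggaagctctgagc
Gcg: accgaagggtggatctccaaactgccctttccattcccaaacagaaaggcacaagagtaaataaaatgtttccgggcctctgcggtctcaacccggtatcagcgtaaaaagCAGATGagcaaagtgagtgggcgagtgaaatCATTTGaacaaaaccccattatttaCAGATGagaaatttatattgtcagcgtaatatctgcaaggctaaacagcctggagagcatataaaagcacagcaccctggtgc
Tph1: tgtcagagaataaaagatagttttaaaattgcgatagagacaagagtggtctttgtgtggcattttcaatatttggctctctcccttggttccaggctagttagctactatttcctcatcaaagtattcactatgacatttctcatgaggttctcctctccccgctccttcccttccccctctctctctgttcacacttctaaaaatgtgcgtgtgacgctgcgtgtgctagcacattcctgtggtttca
CANNTG, searched on both strands, occurs 1 time in the Pyy window, 3 times in the Gcg window and 0 times in the Tph1 window, and in 9 of the 10 windows of the gene set, against 66.2% of 32851 RefSeq promoter windows of this length. CAGATG, 1 of the forms of CANNTG, occurs in 4 of the 10 (Gcg, Insl5, Sct and Cck) and in 14.4% of all windows. TGACGTCA, the cAMP response element, occurs in 2 of the 10 (Sst and Chgb) and in 1.55% of all windows. A match describes the letters only.

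Pyy (chr11:102106676-102107832, GRCm38, GENCODE M21), which encodes peptide YY, a hormone that slows gut transit and lowers appetite, was the most abundant of the 10 genes in both libraries. Its level was 25136 CPM in NPs enteroendocrine-like cells (24803 to 25472) and 126089 in untreated ones (125257 to 126926), 5.02-fold lower in the NPs library (4.94 to 5.09). Fewer NPs cells carried it, and it took a smaller share of their UMIs. It was carried by 35 of 92 NPs cells (38.0%, 28.1 to 48.8%) and 87 of 119 untreated cells (73.1%, 64.2 to 80.8%). Among carriers Pyy took 0.138 to 34.5% of the cell's UMIs in NPs cells with a median of 1.28%, and 0.105 to 41.2% in untreated cells with a median of 9.07%. The ranges overlapped almost wholly, while the medians lay far apart. By count the carriers were alike, with a median of 144 Pyy UMIs in NPs cells and 128 in untreated cells, and they were read to a median depth of 14462 UMIs and 1398 UMIs. The part of depth in the difference of shares was not tested.

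Gcg (chr2:62474530-62483650) encodes proglucagon, from which L cells cut glucagon-like peptide 1. Its level was 8483 CPM in NPs cells (8290 to 8679) and 19859 in untreated cells (19529 to 20193), 2.34-fold lower in the NPs library (2.28 to 2.41). Its carriers were 21 NPs cells (22.8%, 14.7 to 32.8%) and 75 untreated cells (63.0%, 53.7 to 71.7%), with a median of 0.975% of the UMIs of NPs carriers and 2.30% of those of untreated carriers. With a mitochondrial limit of 10% the share of carriers was 12.5% of NPs and 63.3% of untreated cells. The call on the level was lost with that limit (log2 ratio -0.96) and where cells were clustered unscaled with the 10 genes allowed (-0.77).

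Insl5 (chr4:103017872-103026842), whose peptide is known in the mouse from L cells of the distal colon, differed most among the genes detected in both libraries. It stood at 3342 CPM in NPs cells (3222 to 3466) and 41168 in untreated cells (40692 to 41647), 12.3-fold lower in the NPs library (11.9 to 12.8). Only 8 NPs cells carried it (8.70%, 3.83 to 16.4%), against 76 untreated cells (63.9%, 54.6 to 72.5%). A single NPs cell held 58.0% of the NPs Insl5 UMIs, while the richest untreated cell held 12.5%. Without the richest cell of each library the log2 ratio was -4.71 in place of -3.62. The Hox difference given above runs alongside these values, and its part in them was not tested.

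Nts (chr10:102481756-102490486) encodes neurotensin, a peptide that stimulates intestinal secretion and fat absorption. It was found in the NPs library alone: 2177 UMIs in enteroendocrine-like cells there, or 2513 CPM (2408 to 2620), and 0 UMIs in the whole untreated library of kept cells. Taking 3 UMIs in place of 0 in untreated enteroendocrine-like cells (4.31 CPM), the level was at least 583-fold higher in the NPs library. It was carried by 23 NPs cells (25.0%, 16.6 to 35.1%) and by 0 of 119 untreated cells, which at 3 counts allows a share of up to 2.52%. With a mitochondrial limit of 10% the NPs share was 12.5% of 48 cells, and in cells picked by markers without clustering 12.3%. Carriers held 3 to 523 UMIs of it with a median of 69, at most 2.10% of the cell's UMIs.

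Sct (chr7:141278330-141279133), which encodes secretin, the hormone that drives bicarbonate release, differed in level, while the intervals of its carrier shares overlapped. Its level was 4553 CPM in NPs cells (4412 to 4697) and 1751 in untreated cells (1654 to 1852), 2.60-fold higher in the NPs library (2.44 to 2.77). It was carried by 15 NPs cells (16.3%, 9.42 to 25.5%) and 22 untreated cells (18.5%, 12.0 to 26.6%). With every cell thinned to 1000 UMIs, at least 2 Sct UMIs were found in 16.0% of NPs and 25.0% of untreated cells and at least 1 in 27.2% and 51.1%, against the direction of the level. A single cell held 48.6% of the NPs Sct UMIs and a single cell 39.7% of the untreated ones, and without both the log2 ratio was 1.09 in place of 1.38. The next richest cell held 1259 of the 3945 NPs Sct UMIs and 119 of the 1220 untreated ones. The ratio without these cells as well was not computed. Sct UMIs were also widespread outside the class in the NPs library: at least 1 was found in 54.3% of NPs enteroendocrine-like cells and 23.2% of the other NPs cells (median depth 6281.5 and 6262 UMIs), and in 55.5% and 3.02% of the untreated ones (1432 and 2473 UMIs). The call was lost with a mitochondrial limit of 10% (0.83) and in cells picked by markers without clustering (0.37).

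Cck (chr9:121489824-121495694) encodes cholecystokinin, which contracts the gall bladder and stimulates pancreatic enzyme release. It was the least abundant hormone after Nts in untreated cells, at 642 CPM in NPs cells (589 to 697) and 184 in untreated cells (153 to 218), 3.49-fold higher in the NPs library (2.88 to 4.27). Its carriers were 8 NPs cells (8.70%) and 2 untreated cells (1.68%), and the richest cell held 20.3% of the NPs UMIs and 31.2% of the untreated ones. In cells picked by markers without clustering the log2 ratio was 0.55, under the call.

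Sst (chr16:23889573-23890958), which encodes somatostatin, the inhibitor of other endocrine cells, was concentrated in few cells. It stood at 4125 CPM in NPs cells (3991 to 4262) and 4593 in untreated cells (4436 to 4755), a ratio of 0.898 (0.856 to 0.942) that was not called. It was carried by 9 NPs cells (9.78%, 4.57 to 17.8%) and 3 untreated cells (2.52%, 0.523 to 7.19%). In these it took a median of 4.77% of the cell's UMIs in NPs carriers and 14.8% in untreated carriers, up to 11.8% and 17.7%.

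Tph1 (chr7:46644641-46672537) encodes tryptophan hydroxylase 1, the enzyme that starts serotonin synthesis in enterochromaffin cells. Its level was 617 CPM in NPs cells (566 to 672) and 438 in untreated cells (390 to 490), a ratio of 1.41 (1.22 to 1.63) that was not called. The number of carriers differed more than the level: 30 NPs cells (32.6%, 23.2 to 43.2%) and 9 untreated cells (7.56%, 3.52 to 13.9%). Carriers held a median of 11 UMIs in NPs cells and 38 in untreated cells, 0.275% and 0.346% of the cell's UMIs.

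Chga (chr12:102554969-102565028) and Chgb (chr2:132781278-132795079) encode chromogranin A and chromogranin B, acidic proteins that pack hormones and amines into granules. Chga stood at 1989.7 CPM in NPs cells (1897 to 2086) and 1131 in untreated cells (1053.5 to 1213), a ratio of 1.76 (1.62 to 1.92) that was not called. Chgb stood at 9697 CPM in NPs cells (9491 to 9906) and 4632 in untreated cells (4474 to 4795), 2.09-fold higher in the NPs library (2.01 to 2.18), just past the call. Chga was carried by 41 NPs cells (44.6%, 34.2 to 55.3%) and 22 untreated cells (18.5%, 12.0 to 26.6%). Chgb was carried by 55 NPs cells (59.8%, 49.04 to 69.9%) and 34 untreated cells (28.6%, 20.7 to 37.6%). The Chgb call was lost without a mitochondrial limit (log2 ratio 0.98) and turned to -0.18 in cells picked by markers without clustering.

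**Figure D2:**
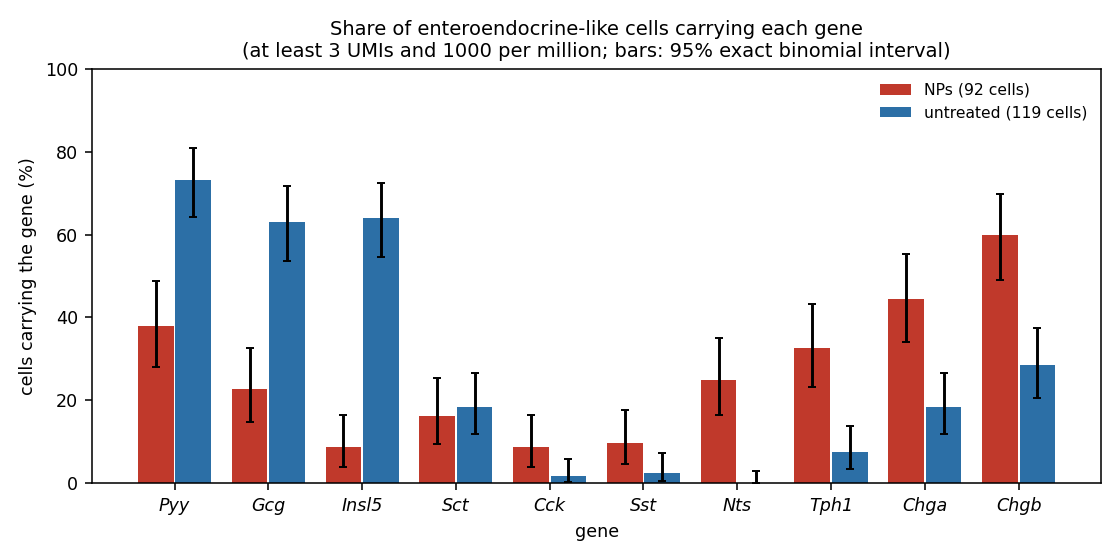
Share of the 92 NPs and 119 untreated enteroendocrine-like cells that carried each gene, in percent, with 95% exact binomial intervals. Pyy, Gcg and Insl5 were carried by more untreated cells, Nts, Tph1, Chga and Chgb by more NPs cells, and the Sct shares, 16.3% and 18.5%, lay within each other's intervals.

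The shares are set against depth and free RNA here. After thinning each cell to 1000 UMIs, which left out 11 NPs and 31 untreated cells, Pyy had at least 2 UMIs in 35.8% of NPs and 72.7% of untreated cells, Gcg in 24.7% and 63.6%, and Insl5 in 9.88% and 62.5%. Nts had them in 17 of 81 NPs cells and 0 of 88 untreated cells. Tph1 had them in 30.9% of NPs and 11.4% of untreated cells, Chga in 43.2% and 22.7%, and Chgb in 56.8% and 28.4%. For these 7 genes the shares thus kept their direction at equal depth, while Sct, given above, was found in fewer NPs than untreated cells. Among all other cells, thinned alike, the share with at least 2 UMIs was highest for Sct in the NPs library (1.29%) and for Pyy in the untreated library (0.615%). Unthinned, at least 1 UMI of Pyy was found in 52.2% of NPs enteroendocrine-like cells and 12.3% of other NPs cells, and in 78.2% of untreated enteroendocrine-like cells and 9.61% of other untreated cells.

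Cells of the cluster often carried several of the 10 genes. At least 2 were carried by 78 of 92 NPs cells (84.8%, 75.8 to 91.4%) and 97 of 119 untreated cells (81.5%, 73.4 to 88.0%), but by 37.4% of NPs and 54.7% of untreated cells where cells were picked by 3 markers without clustering. At least 3 were carried by 55 NPs cells (59.8%) and 83 untreated cells (69.7%). The most in 1 cell was 6, in 4 NPs cells and 1 untreated cell. Cells with none were 3 and 2. Depth differed with this number: NPs cells with 1 of the genes had a median of 1187 UMIs and those with 6 had 16747, and untreated cells with 1 had 1075 and the cell with 6 had 12865.

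The cells parted into those with Pyy and those with Chgb. Pyy without Chgb was carried by 31 NPs and 82 untreated cells, Chgb without Pyy by 51 NPs and 29 untreated cells, both genes by 4 NPs and 5 untreated cells, and neither by 6 and 3. This left few cells between the 2 kinds in either library. Over single cells the Pearson correlation of log-scaled Pyy and Chgb was -0.76 in 92 NPs cells and -0.79 in 119 untreated cells, as a description of cells that share 1 library each and differ in depth.

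**Figure D3:**
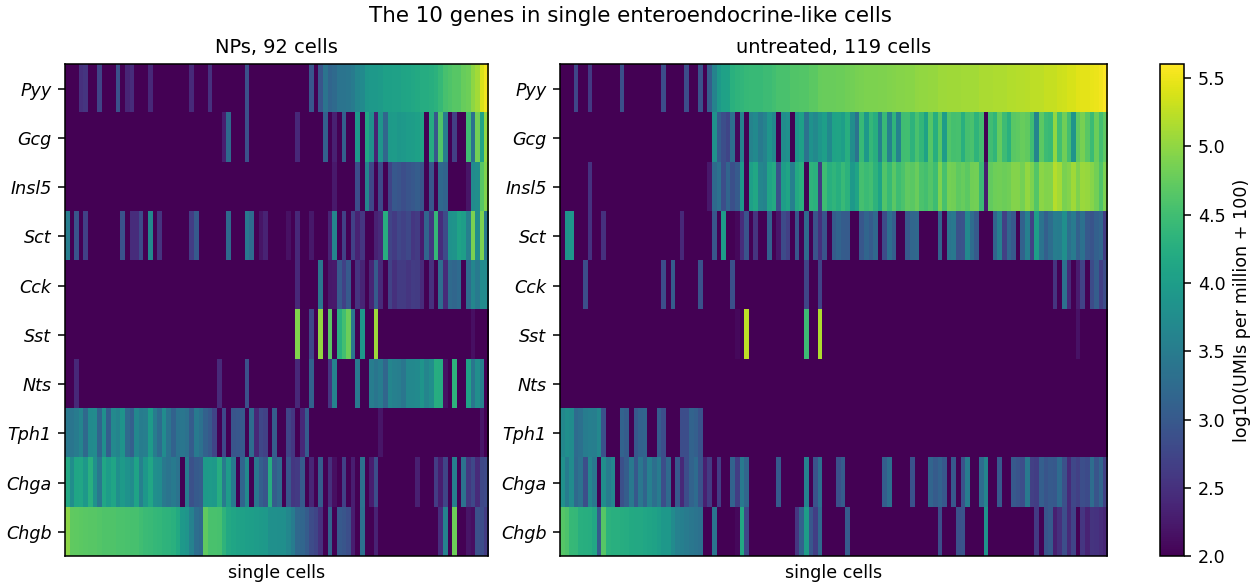
Each column is 1 enteroendocrine-like cell, 92 in the NPs library and 119 in the untreated library, and each row a gene, coloured by log10 of CPM plus 100. Cells are ordered with Tph1 carriers at the left and Pyy carriers at the right, by rising Pyy; Chgb and Pyy fill opposite sides, Insl5 follows Pyy in untreated cells, and Nts marks Pyy cells in the NPs library alone.

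On the Pyy side the genes were nested. All 21 NPs and all 75 untreated carriers of Gcg also carried Pyy, as did all 8 NPs and all 76 untreated carriers of Insl5. Insl5 carriers also carried Gcg in 8 of 8 NPs cells and 71 of 76 untreated cells. In the other direction the libraries differed: of Gcg carriers, 8 of 21 NPs cells (38.1%) and 71 of 75 untreated cells (94.7%) carried Insl5. The Pearson correlation of Gcg with Pyy was 0.75 in NPs cells and 0.90 in untreated cells, and that of Gcg with Insl5 0.83 and 0.96.

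Nts joined this group in the NPs library. Of its 23 carriers, 22 carried Pyy (95.7%) and 17 carried Gcg (73.9%), and of the 21 NPs Gcg carriers 17 carried Nts (81.0%). Insl5 was carried by 5 of the 23. The most frequent peptide hormone set was Pyy with Gcg and Nts in 11 NPs cells (12.0% of 92), and Pyy with Gcg and Insl5 in 53 untreated cells (44.5% of 119). Each of these 11 NPs cells held 0 Chgb UMIs. A Chgb UMI was found in 8 of 21 NPs and 26 of 75 untreated Gcg carriers. Neurod1 stood at 222 CPM in NPs Gcg carriers, at 437 in the 8 that carried Insl5, and at 338 in NPs cells without Gcg. What lies behind the low endocrine markers of these cells was not tested. Pyy, Gcg and Insl5 without another hormone were found in 2 NPs cells, and with Sct in 16 untreated cells. Pyy, Gcg, Insl5, Sct, Cck and Nts were carried together by 3 NPs cells.

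Sct and Cck carriers lay mostly among the Pyy cells. Of Sct carriers, 12 of 15 NPs cells (80.0%) and 20 of 22 untreated cells (90.9%) carried Pyy, and 5 of 15 NPs cells (33.3%) and 19 of 22 untreated cells (86.4%) carried Gcg. Of the 8 NPs Cck carriers 7 carried Pyy, 6 Gcg, 6 Sct and 6 Nts, and both untreated Cck carriers carried Pyy, Gcg, Insl5 and Sct.

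Sst was carried with Pyy in some cells and with Insl5 in none. Of its carriers, 7 of 9 NPs cells and 3 of 3 untreated cells carried Pyy (77.8% and 100%, and 37.5% of NPs and 100% of untreated carriers after thinning to 1000 UMIs), none carried Insl5 or Tph1, and Gcg was carried by 1 of 9 and 2 of 3. Sst was the leading hormone, with most UMIs of the 7, in 8 NPs and 2 untreated cells. Chosen after their values were seen, Hhex, a transcription factor of somatostatin cells, stood at 596 CPM in NPs Sst carriers and 22.7 in the other NPs enteroendocrine-like cells, and at 1154 and 19.5 in the untreated ones. Iapp, which encodes amylin, stood at 4944 and 27.8 CPM in the NPs cells and at 5768 and 107 in the untreated ones.

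Pyy was the leading hormone in 23 of the 41 NPs cells that carried any of the 7 peptide hormones (56.1%) and in 84 of 89 untreated cells (94.4%), and Sct led in 6 and 2. None of the 7 was carried by 51 NPs and 30 untreated cells.

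Tph1 was carried apart from the peptide hormones. None of the 30 NPs or 9 untreated Tph1 carriers carried Pyy, Gcg, Insl5, Cck, Sst or Nts. Taking 3 counts in place of 0, a count of 0 among 30 allows a share of up to 10.0%, and among 9 of up to 33.3%. At 1 UMI as the limit for carrying, 22.9% of NPs and 27.3% of untreated Tph1 carriers carried Pyy. Sct was the exception, carried by 2 of the 30 NPs and 2 of the 9 untreated cells. The granins went with Tph1: Chgb was carried by 29 of 30 NPs cells (96.7%) and 8 of 9 untreated cells (88.9%), and Chga by 25 of 30 (83.3%) and 7 of 9 (77.8%). Chga and Chgb were also carried together, in 39 of 41 NPs and 17 of 22 untreated Chga carriers. Chgb was carried by 1 of 21 NPs and 4 of 75 untreated Gcg carriers.

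**Figure D4:**
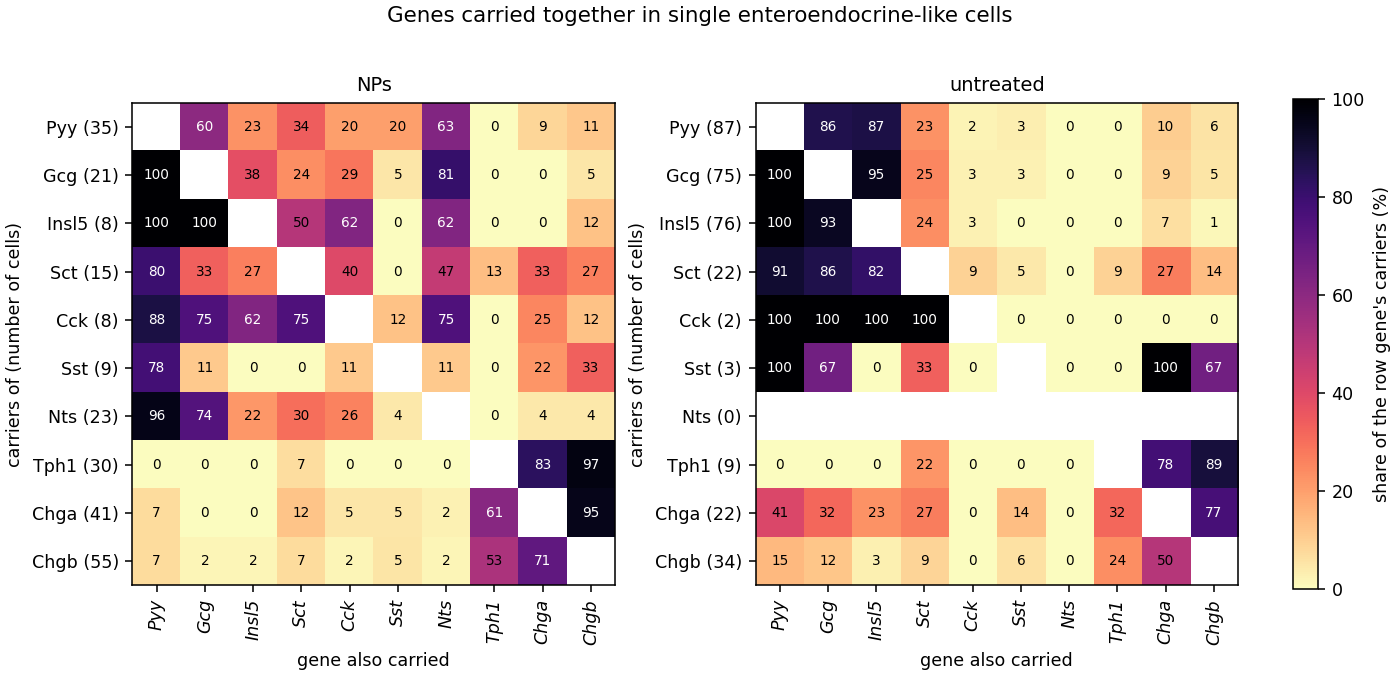
Share of the carriers of each row gene that also carried the column gene, in percent, for NPs (left) and untreated (right) enteroendocrine-like cells, with the number of carriers in brackets. Gcg and Insl5 rows stand at 100 for Pyy in both libraries, Tph1 rows at 0 for Pyy, and Tph1 carriers at 97 and 89 for Chgb; the untreated Nts row is empty because no cell carried it.

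Tph1-carrying cells were then set against all other enteroendocrine-like cells within each library, on the log2 ratio of summed levels with 10 CPM added, over 2546 genes. The largest ratios that held in both libraries were those of Atf6, Slc38a11, Slc18a1, Ddc and Rasal2. Slc18a1, the vesicle transporter that loads serotonin into granules, stood at 361 CPM in NPs Tph1 carriers and 54.0 in other NPs cells, and at 331 and 26.0 in the untreated ones. Ddc, the enzyme that completes serotonin synthesis, stood at 2145 and 306 in NPs cells and 1876 and 380 in untreated cells. Atf6, a sensor of endoplasmic reticulum stress, stood at 625 and 88.6 in NPs cells and 601 and 81.3 in untreated cells.

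The smallest ratios were those of Ppy, Isl1, Ghrl, Mgst1 and Etv1. Ppy (pancreatic polypeptide) and Isl1, a transcription factor of peptide-hormone cells, had 0 UMIs in Tph1 carriers of both libraries, against 1837 and 147 CPM in the other NPs cells and 2323 and 275 in the other untreated cells. Ppy lay in few cells, with a UMI in 12.9% of the other NPs and 5.45% of the other untreated cells, and Isl1 in 38.7% and 25.5%. At 3 counts, 0 allows a share of up to 10.0% of NPs and 33.3% of untreated Tph1 carriers. Etv1 stood at 27.8 in NPs Tph1 carriers and 282 in other NPs cells, and at 85.8 and 436 in the untreated ones. Among the listed transcription factors, Lmx1a, known from enterochromaffin cells, stood at 236 and 26.3 in NPs cells and at 135 and 9.75 in untreated cells.

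The NPs library was compared with the untreated library within these sets too. Among Tph1 carriers Tph1 itself stood at 2937 CPM in NPs cells (2664 to 3231) and 3311 in untreated cells (2928 to 3731) (a ratio of 0.887, 0.760 to 1.04); since carriers were chosen by their own Tph1 level, these values are a description only. Chga stood at 7616 and 3299 there, 2.31-fold higher in the NPs library (2.02 to 2.65), and at 868 and 844 in the other cells, a ratio of 1.03 (0.914 to 1.16). Of 2169 genes measured in Tph1 carriers 22.9% were at least 2-fold higher or lower. In the other cells 10.6% of 2926 were higher and 4.03% lower. There Chgb stood at 4317 in NPs cells and 2016 in untreated cells, a ratio of 2.14 (2.00 to 2.29), against 36680 and 24368 in Tph1 carriers, a ratio of 1.51 (1.43 to 1.59).

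Cells that carried Gcg, 21 in the NPs library and 75 in the untreated library, gave the same comparison among proglucagon cells alone. Pyy stood at 60152 CPM in NPs carriers and 210090.0 in untreated carriers, 3.49-fold lower in the NPs library (3.44 to 3.55), and Insl5 at 8356 and 71191, 8.52-fold lower (8.20 to 8.85). Sct stood at 10019 and 2704, 3.71-fold higher (3.46 to 3.97), and Cck at 1452 and 304, 4.78-fold higher (3.91 to 5.87). The Sct level rested on few cells. Of the 3470 Sct UMIs of NPs Gcg carriers 1 cell held 1916 and another 1259, and of the 1085 untreated ones 484 and 119. Sct took a median of 0.0393% of the UMIs of NPs Gcg carriers and 0.0918% of those of untreated ones. Nts stood at 5044 and 0. In summed level these 5 genes differed in the same direction among Gcg carriers as over all enteroendocrine-like cells, while the median share of Sct ran the other way. The shared direction was largely given beforehand, since Gcg carriers held most UMIs of these genes in the class. They held 20833 of 21779 NPs and 84298 of 87842 untreated Pyy UMIs, and 2894 of 2896 and 28565 of 28680 Insl5 UMIs. Gcg itself stood at 21167 and 34453, 1.63-fold lower, and was not past 2-fold. Since these carriers were chosen by their own Gcg level, its values are a description only. Chga (167 and 750, 4.48-fold lower, 3.37 to 6.04) and Chgb (367 and 768, 2.09-fold lower, 1.70 to 2.59) ran the other way from their levels over all cells. Sst, at 243 and 4336, was 17.9-fold lower (14.4 to 22.5), while its levels over all cells lay close together; 1 NPs and 2 untreated Gcg carriers carried Sst. Gcg carriers were read to a median of 17322 UMIs in the NPs library and 1366 in the untreated library.

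Outside the class the 10 genes were low, with exceptions. Among named classes of at least 50 cells, enteroendocrine-like cells ranked highest for all 10 genes in the NPs library and for 8 in the untreated library, where Nts was at 0 throughout and Tph1 was highest in mast cell or basophil-like cells. These stood at 886 CPM (798 to 981) against 438 (390 to 490) in untreated enteroendocrine-like cells, intervals that did not overlap, and 27 of 78 of them carried Tph1, which mast cells are known to use to make serotonin. The NPs library held only 5 such cells, too few to rank. All 5 had a Tph1 UMI and 4 carried it, with a median of 6.5 UMIs at a median depth of 2676 UMIs. Enteroendocrine-like cells held 85.6% of all Tph1 UMIs of kept NPs cells and 34.7% of those of untreated cells.

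**Figure D5:**
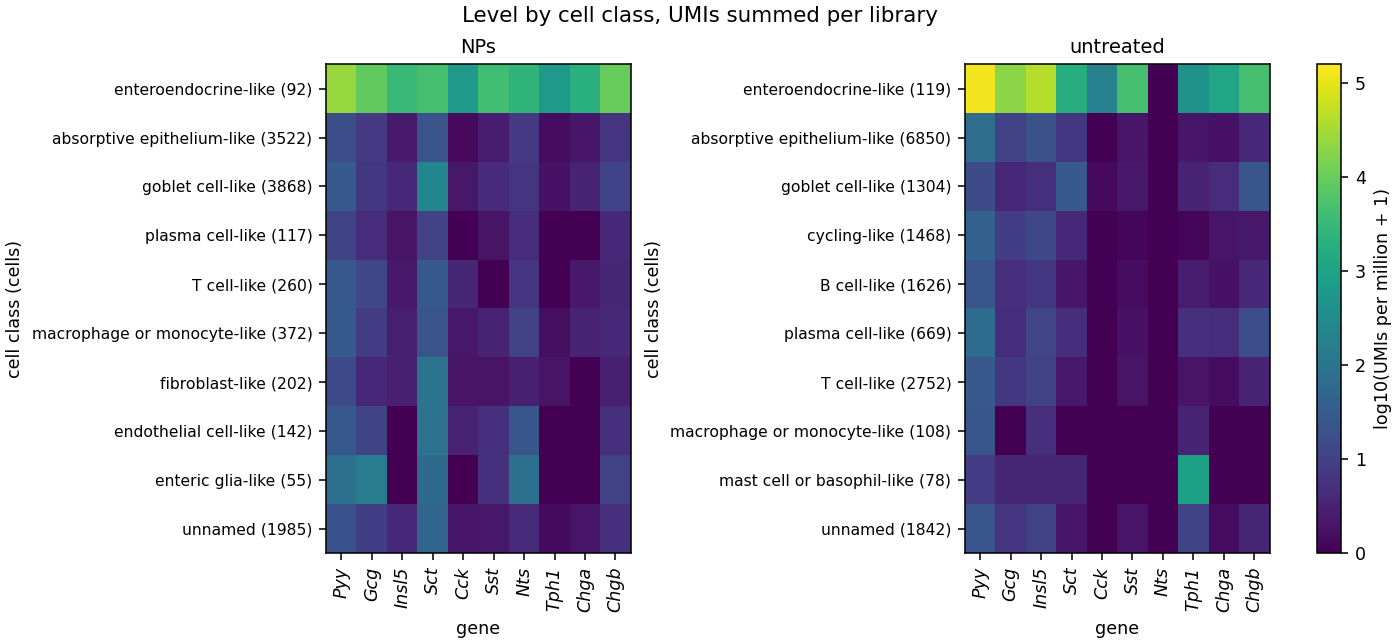
Level of each gene by cell class, as log10 of CPM plus 1, for classes of at least 50 cells in the NPs library (left) and the untreated library (right), with the number of cells in brackets. The enteroendocrine-like row is brightest, apart from Tph1 in untreated mast cell or basophil-like cells, and Sct is raised in NPs goblet cell-like cells. The absorptive epithelium-like rows are not compared, since different clusters make them up in the 2 libraries and the cluster with most untreated cells is led by the lymphocyte genes Ccl5 and Gzma.

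Sct was also found in goblet cell-like cells, mucus-secreting cells of the epithelium. It stood at 239 CPM in the NPs ones (234 to 244) and 26.7 in the untreated ones (23.7 to 30.0). It was carried by 119 of 3868 NPs goblet cell-like cells and 0 of 1304 untreated ones, and the NPs carriers held a median of 27 UMIs. Of the 119, 11 also carried Pyy. Sct was not limited to goblet cell-like cells in the NPs library. It stood at 96.1 CPM in fibroblast-like and 92.0 in endothelial cell-like cells there, but only 1 of 202 and 1 of 142 of them carried it. In an unnamed cluster of 116 cells led by Acta2, Tagln and Tpm2 it stood at 375 CPM and was carried by 11 cells. Enteroendocrine-like cells held 27.6% of the Sct UMIs of kept NPs cells and 65.2% of the untreated ones. Different clusters held most goblet cell-like cells of the 2 libraries.

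Cells with several of the genes also fell outside the class, more often in the untreated library. At least 2 were carried by 19 NPs and 78 untreated cells of other classes, with a median of 763 and 1021.5 UMIs and of 0 of the 22 markers. Within the class they were 78 NPs and 97 untreated cells. Carriers of Pyy outside and inside the class were 23 and 35 in the NPs library, and 124 and 87 in the untreated library. For Insl5 these were 3 and 8, and 74 and 76, and for Gcg 6 and 21, and 52 and 75. The part of these outside cells in the differences above was not tested. When the 10 genes were allowed in the clustering the class grew to 125 NPs and 250 untreated cells, and the levels kept their order (Pyy, Gcg and Insl5 lower, Nts, Sct, Cck and Chgb higher in the NPs library).

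Lists of related genes are given by their counts, to be set against 8.47% higher and 3.55% lower among all 3045 genes measured. Counts of 0 or 1 gene in a list are too small to set apart from these shares. Of 24 listed enteroendocrine transcription factors 14 were measured (a mean of 50 CPM over the libraries and 20 UMIs in all), 0 were higher and 1 was lower, with a median log2 ratio of -0.09 against 0.19 for all genes. The lower gene was Prox1, at 48.5 CPM in NPs cells and 105 in untreated cells. Isl1 stood at 122 and 243, and Foxa1, with the largest ratio, at 127 and 67.5.

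Of 27 granule and exocytosis genes 20 were measured, 1 was higher and 5 were lower (Scg2, Scg5, Pam, Scgn and Resp18), with a median of -0.05. Over all genes 8.47% were higher and 3.55% lower. Scg2, a granin-like protein, stood at 73.9 CPM in NPs cells and 451 in untreated cells, 6.10-fold lower (4.65 to 8.11), and Scg5, the chaperone of a prohormone convertase, at 217 and 953, 4.39-fold lower (3.73 to 5.19). Rab3c, a vesicle GTPase, stood at 247 and 56.0, a ratio of 4.41 (3.12 to 6.38). Pcsk1, the convertase that cuts prohormones, stood at 95.8 and 60.3 and was not called.

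Of 27 other gut hormones and peptides 6 were measured, 3 were higher (Guca2b, Guca2a and Tac1) and 1 was lower, with a median of 0.71. The shares over all genes were 8.47% higher and 3.55% lower. Ghrl (ghrelin) was the lower gene, at 142 CPM in NPs cells and 1263 in untreated cells, 8.90-fold lower (7.36 to 10.8). Tac1, the substance P precursor, stood at 721 and 343. Guca2a stood at 759 in NPs and 164 in untreated enteroendocrine-like cells, but at 1481 and 733 in the other cells of the NPs and untreated libraries, above the class itself.

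Of 13 serotonin genes 8 were measured and 1 was higher, Gch1, which makes a cofactor of Tph1, at 87.7 CPM in NPs cells and 34.4 in untreated cells, with a median of 0.59. Of 30 sensor genes 8 were measured, 0 were higher and 3 were lower, with a median of 0.05. The 3 lower genes were Avpr1b, a vasopressin receptor, at 25.4 in NPs cells and 230 in untreated cells, Piezo2, a mechanically gated channel, at 30.0 and 105, and Olfr78, a receptor for short-chain fatty acids, at 104 and 251. Both lists stand beside 8.47% higher and 3.55% lower over all genes.

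The genes most like each member over single cells were sought for the 5 members with at least 10 carriers in each library, by Pearson correlation of log-scaled UMIs averaged over 92 NPs and 119 untreated cells, among 5103 genes. Etv1, a transcription factor, came first for Pyy (0.66 in NPs cells, 0.33 in untreated cells), Gcg (0.57 and 0.36) and Sct (0.51 and 0.38). Tac1 came first for Chga (0.79 and 0.47) and Chgb (0.78 and 0.60), followed for both by Ddc and Slc38a11, an amino acid transporter. Cldn14, a tight junction protein, was among the nearest 3 for Pyy, Gcg and Sct, and Scg2 for Pyy and Gcg. Cells of a library share its depth range and free RNA, so the coefficients describe these libraries.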

How the data were processed

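The deposited count matrices of the 2 intestinal libraries were used, of 4 in the series. They give, for each barcode and 55450 genes, unnormalized counts of UMIs, and no deposited barcode held under 500 UMIs. They were made with Cell Ranger 5.0.1 on GRCm38 per the submitters' processing notes, from dissociated tissue after lysis of red cells and removal of dead cells per the labels' protocols. Reads were not aligned again.

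The 10 genes and all lists were chosen with earlier results of these data known. A barcode was kept from 500 UMIs and 200 genes upward if mitochondrial genes held no more than 20% of its UMIs (10647 NPs, 16967 untreated). Scrublet marked 0% of either library, which means that it had not worked, and a fixed score of 0.25 removed 0.0605% of scored NPs and 0.759% of scored untreated barcodes, so doublets were largely not removed. Both libraries were clustered together with scanpy 1.11.5 and leidenalg 0.10.2 (counts per 10000, log, 2000 variable genes without the 10 genes, unit variance, 30 components, 15 neighbours, resolution 1, seed 1; 28 clusters). Scaling to unit variance was chosen after the data were seen, because without it no cluster was named enteroendocrine when the 10 genes were left out. A cluster took the name of the class with most of its markers raised (2-fold over the median cluster, found in 20% of its cells), from at least 3 markers. Names mean likeness to markers.

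UMIs were summed per library and class and divided by the summed total. Levels have exact Poisson intervals, shares exact binomial (Clopper-Pearson) intervals and ratios conditional binomial intervals, computed with scipy 1.17.1, pandas 2.3.3 and numpy 2.4.6 in Python 3.11.15. A ratio against 0 used 3 counts. No test was run, since cells are not replicates. The functions were tested on simulated data. Genes named were the 10 members, from each list the 2 largest and 2 smallest ratios, the 3 most correlated genes per member, and the 5 largest and 5 smallest ratios between Tph1 carriers and other cells (the lower ratio of the 2 libraries); genes called in a list, Lmx1a, Hhex and Iapp were named after their values were seen. Positions are those of GENCODE M21, promoters those of the RefSeq table for GRCm38.p6, in which all 10 genes matched. Where RefSeq lists several starts, the start nearest to that of GENCODE was used. Alternatives changed the filters, the clustering, the definition of a carrier, the summing of UMIs, free RNA, centring and the gene minimum.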

Additional observations from a re-analysis of the deposited data

Results flagged for a closer look

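Sct differed in opposite directions between the libraries in the 2 sets of enteroendocrine-like cells. In Tph1-carrying cells it stood at 500 CPM in the NPs library (72 UMIs in 30 cells, 391 to 630) and 1288 in the untreated library (105 UMIs in 9 cells, 1053 to 1559), a log2 ratio of -1.37. In the other enteroendocrine-like cells it stood at 5361 in the NPs library (62 cells) and 1813 in the untreated library (110 cells), a log2 ratio of 1.56. That ratio rested on few cells. Of the 3873 Sct UMIs of these NPs cells 1 cell held 1916 and another 1259, and of the 1115 untreated ones 484 and 119. The ratio without these cells was not computed. Only 2 Tph1 carriers of each library carried Sct, and the difference between the 2 ratios was not tested.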

How the results depend on the processing

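No paired analysis was possible because each group is 1 library, the labels give no replicate numbers and no test was run. Pyy, Insl5 and Nts kept their calls under all 15 alternatives run on levels, with log2 ratios of -3.55 to -1.88, -4.84 to -2.95 and 7.95 to 9.60. Gcg was past 2-fold in 13 of 15 (-2.42 to -0.77), Sct in 13 (0.37 to 1.90), Cck in 14 (0.55 to 2.40) and Chgb in 12 (-0.18 to 1.88). Genes not called in the text were past 2-fold in 3 of 15 for Chga (-0.42 to 1.77), 2 for Tph1 (-0.75 to 1.86) and 1 for Sst (-1.43 to 0.80). Among cells with 3 markers and no clustering (203 NPs, 106 untreated), Chgb turned to -0.18, 1 of the 10 genes was higher in place of 4, and 37.4% of NPs and 54.7% of untreated cells carried at least 2, in place of 84.8% and 81.5%. The difference in the share of enteroendocrine-like cells (0.159 points, NPs minus untreated) was 1.28 there, 0.315 in clustered cells with 3 markers, -0.0444 with a mitochondrial limit of 10%, -0.151 without one, -0.0438 with the libraries clustered separately and -0.309 with the 10 genes allowed in the clustering, so its direction is not settled. Over 14 alternatives Pyy was carried by 17.7 to 52.2% of NPs and 47.2 to 94.7% of untreated cells, Gcg by 10.8 to 35.8% and 37.7 to 74.0%, Insl5 by 3.45 to 22.8% and 36.8 to 85.2%, Nts by 12.3 to 35.8% and 0%, and Chgb by 25.6 to 77.2% and 8.28 to 50.4%. With the 10 genes allowed, 68.4% of untreated cells carried at least 2. Carrying at 1 UMI gave 97.8% in NPs and 98.3% in untreated cells. Genes past 2-fold (258 higher, 108 lower) numbered 562 and 218 with the mean over cells, 59 and 34 at a mean of 200 CPM, and 2490 and 1363 without a minimum. With free RNA subtracted 40 were higher, and after centring 165 were lower. Chosen after seeing the data were clustering unscaled with the 10 genes allowed, which gave a difference of -0.505 points and at least 2 genes in 100% of NPs and 94.1% of untreated cells, and leaving out the richest cell. Gcg carriers carried Pyy in 90.3 to 100% of NPs and 100% of untreated cells under all 14 alternatives, and Tph1 carriers carried Pyy in 0 to 22.9% of NPs and 0 to 27.3% of untreated cells. The causes were not tested. Depth limits the shares: NPs enteroendocrine-like cells were read deeper, and the untreated Sst, Cck and Tph1 values rest on 3, 2 and 9 carriers.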

Other observations

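Receptors of the hormones were scarce in the enteroendocrine-like cells. Of 27 listed receptors 1 was measured in enteroendocrine-like cells, Sort1, a sorting receptor that binds neurotensin, at 65.8 CPM in the NPs library and 60.3 in the untreated library, and 16 had 0 UMIs in the enteroendocrine-like cells of both. Sstr1, a somatostatin receptor, was highest in enteroendocrine-like cells of all classes, at 30.0 CPM in NPs cells (26 of the 53 UMIs of the library) and 24.4 in untreated cells (17 of 26). Glp1r, the receptor of glucagon-like peptide 1, was also highest there in the NPs library, at 12.7 (11 UMIs), while untreated enteroendocrine-like cells held 2 UMIs, too few to rank. Npy1r, which binds peptide YY, was highest in fibroblast-like cells of the NPs library at 113 CPM, followed by enteroendocrine-like cells at 17.3 (15 UMIs). The untreated library held too few fibroblast-like cells to compare. Among the untreated classes compared, enteroendocrine-like cells were highest for Npy1r at 15.8 CPM (11 UMIs), followed by cycling cells at 12.2.

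Chgb was seen outside the class in the untreated library. Goblet cell-like cells stood at 10.3 CPM in the NPs library and 24.1 in the untreated library, and 15 of 3868 NPs and 27 of 1304 untreated ones carried it, of which 0 and 4 carried another of the 10 genes.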
